A study of Mus musculus with 10 samples.

Results

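Mat2a, Mat2b, Mettl16, Mtr, Mtrr, Amd1, Srm and Odc1 act in S-adenosylmethionine synthesis and its control, the rebuilding of methionine, or polyamine synthesis. These 8 genes were found by symbol among the 47333 genes measured in mouse lung, and all 8 were among the 18024 genes expressed enough to be tested. The right middle lobe was taken from naïve, untreated C57BL/6J mice aged 12 weeks, of which 5 had lost Bpifb1 (KO, 1 male and 4 females) and 5 were wild type (WT, 2 males and 3 females). The product of Bpifb1 is secreted into the fluid lining the airways, and the study compared lungs with and without it. How the KO allele was made, and whether its loss was restricted to some cells, is not given in the sources used here. The labels do not say that each library came from its own mouse; libraries are counted as mice here, and p-values measure the spread between these libraries. The 8 genes were chosen by their measured KO and WT counts, which were in view when they were proposed. Their differences between the genotypes are therefore given as a description, without a test. Their differences between the sexes were not used in the choice and were tested. Males made up 1 of 5 KO and 2 of 5 WT mice, and both contrasts come from 1 fit. The sex tests are therefore not fully separate from the choice.

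S-adenosylmethionine is the methyl donor for most methylation of DNA, RNA, histones and small molecules. It is made from methionine and ATP by methionine adenosyltransferases: MAT2A is the catalytic subunit used outside the liver, MAT2B its regulatory partner, and MAT1A the form typical of hepatocytes. After a methyl group has been given away, homocysteine is turned back into methionine by the vitamin B12-dependent enzyme MTR, which MTRR reactivates. AMD1 instead decarboxylates S-adenosylmethionine, and spermidine synthase (SRM) joins the product to putrescine, which ornithine decarboxylase (ODC1) makes from ornithine. Polyamines bind nucleic acids and are known for their need in cell growth, and spermidine also supplies the hypusine residue of the translation factor EIF5A. Cells adjust Mat2a RNA to the supply of S-adenosylmethionine through METTL16, an RNA methyltransferase that binds hairpins in the 3′ untranslated region of Mat2a. When the methyl donor is scarce, METTL16 stays on the hairpins and promotes splicing of a retained intron, and when it is plentiful METTL16 methylates the hairpins and the RNA is less stable.

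The METTL16 hairpins carry a shared nonamer, shown here because it links 2 of the 8 genes by sequence. The 3′ untranslated region of the Mat2a transcript with the longest one (2178 bases, GENCODE release M21) was searched on the RNA strand only for UACAGAGAA and for UACAGAAAA, a variant that differs from it by G7A (position counted from 1 at the 5′ end of the nonamer). The nonamer is in capitals within 30 bases of transcript, written 5′ to 3′.
Mat2a site 1: uggcguagguUACAGAGAAgccuucaagcu
Mat2a site 2: ccuugugauaUACAGAGAAgucacagggca
Mat2a site 3: cugguguagcUACAGAGAAaccagcuuccu
Mat2a site 4: auggcguaagUACAGAGAAgccaucaccuc
Mat2a site 5: caagguguccUACAGAAAAaccuuggguua
Mat2a site 6: gcugguguggUACAGAGAAgccagcuuguu
In GRCm38 these windows lie on the minus strand, in the 3′ untranslated region, at chr6:72434234-72434263, chr6:72433450-72433479, chr6:72433271-72433300, chr6:72433156-72433185, chr6:72433045-72433074 and chr6:72432937-72432966 for sites 1 to 6. Their nonamers begin 724, 1508, 1687, 1802, 1913 and 2021 bases after the stop codon, with 5 of the 6 towards the end of the region.

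**Figure D1:**
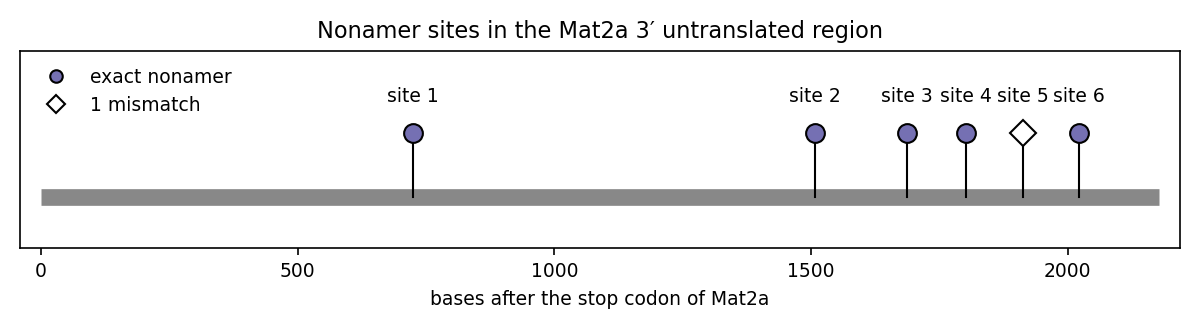
Map of the nonamer sites in the Mat2a 3′ untranslated region, to scale, with the distance from the stop codon in bases on the x axis; filled circles mark the 5 exact nonamers and the open diamond the 1 variant. Site 1 stands apart at 724 bases, and sites 2 to 6 follow between 1508 and 2021 bases.

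Few other transcripts held as many exact sites. Of 4789 genes with a 3′ untranslated region of at least 2178 bases, 173 (3.61%) held UACAGAGAA at least 1 time in the first 2178 bases, 5 held it at least 2 times, and Mat2a was the 1 gene with at least 3. Among the other 7 genes described here, none of the annotated transcripts held the exact nonamer. A match to these letters is a description and shows neither binding nor methylation in these lungs.

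The estimated gene counts of a library summed to between 21357452 and 28321361, and 3 counts, the smallest signal read as detected, equalled 0.104 to 0.143 CPM (counts per 1000000 counts of the library, after TMM scaling, the trimmed mean of M values). Bpifb1 measured 0.217 to 1.26 CPM in KO and 28.1 to 79.6 CPM in WT mice, as the labels have it. The library labelled KO replicate 5, a female, had 1.78 CPM of Xist, a level next to the 1.29 to 1.73 CPM of the 3 males and far from the 274 to 407 CPM of the other 6 females. The sex label of this library is therefore in doubt, and the log2 fold changes of Mat2a and Mettl16 are also given without it. Apart from runs that leave out single mice, all other values by sex, females alone included, keep it as a female. It was not refitted as a male, so the doubt extends to those values and to their backgrounds. Over all genes, the quasi-likelihood test of edgeR, at a Benjamini-Hochberg adjusted p below 0.05, called 4 of 18024 between KO and WT (0.0222%; 0.00555% higher and 0.0166% lower in KO) and 105 between the sexes (0.583%; 0.449% higher and 0.133% lower in males). Xist was not among these 105. With KO replicate 5 kept as a female, its male value stood at -7.58 relative to females in log2 units (SE 1.70). The same test gave it an adjusted p of 0.11. Markers of lung cells were abundant in all 10 mice, with 12646 to 17396 CPM of the surfactant gene Sftpc and 2028 to 2744 CPM of the alveolar type 1 gene Ager. The summed level separated the genotypes for 0 of 15 marker lists of lung and neighbouring cell types, against 1.88% of all tested genes. At such a share, 0 of 15 does not show that cell composition was the same. Among these lists the alveolar type 2 genes ran most against Mat2a (r = -0.62 over 10 mice, 21449 to 24550 CPM in KO and 22251 to 27006 CPM in WT). The T cell, hepatocyte and alveolar macrophage lists were close to that (r = -0.59, -0.57 and -0.54). At the other end were the endothelium and erythroid lists (r = 0.46 and 0.41). The part of cell composition in the values below was not tested, and in pieces of whole lung fewer cells of a type and less RNA per cell cannot be told apart.

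Levels of different genes were compared per length, as CPM per kilobase of merged exons (mean ± SD over 10 mice). Mat2a stood highest at 45.2 ± 6.72 CPM per kilobase. Odc1 followed at 21.8 ± 1.82 and Amd1 at 19.7 ± 1.11 CPM per kilobase, with ranges that overlapped. Mat2b at 13.3 ± 0.792 and Srm at 12.7 ± 1.61 CPM per kilobase also overlapped. The enzymes that rebuild methionine were lower, with Mtrr at 2.80 ± 0.132 and Mtr at 1.96 ± 0.122 CPM per kilobase, and the RNA methyltransferase gene Mettl16 measured 1.84 ± 0.147. Mtr and Mettl16 overlapped, whereas all Mtrr values lay above them. Mat1a, the hepatocyte form of the synthetase, was also present at 3.28 ± 0.355 CPM per kilobase, 9.76 to 13.2 CPM per mouse. Of the 4 hepatocyte markers albumin measured 0.465 to 1.63 CPM and Apoa1, Ttr and Serpina1a at most 0.13 CPM, so that Mat1a was detected where defining liver genes were at or near 0. With the longest annotated transcript as the length, Mat2b (27.0 CPM per kilobase) moved above Amd1 (21.7) and below Odc1 (33.6), and Mat2a remained highest (59.9).

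**Figure D2:**
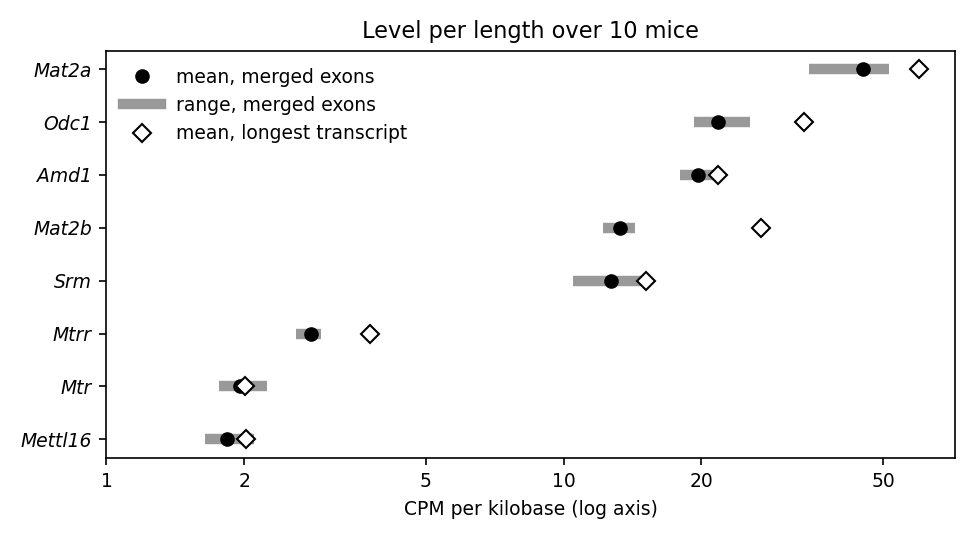
Level of each gene in CPM per kilobase on a log axis; black points are means over 10 mice and grey bars the range over mice with merged exons as the length, and open diamonds are means with the longest annotated transcript as the length. Mat2a is highest by both lengths, and Mtrr, Mtr and Mettl16 form the low end at 1.84 to 2.80 CPM per kilobase with merged exons.

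Mat2a (ENSMUSG00000053907; GRCm38 chromosome 6, 72432799 to 72439558, minus strand) stood at 231, 222, 217, 229 and 224 CPM in KO replicates 1 to 5. In WT replicates 1 to 5 it measured 157, 214, 209, 171 and 155 CPM. All KO values lay above all WT values, the KO mice within a narrow band and the WT mice in separate groups: the 2 males at 209 and 214 CPM and the 3 females at 155 to 171 CPM. The 5 KO mice averaged 225 ± 5.54 CPM and the 5 WT mice 181 ± 28.4 CPM (± SD here and below). With sex in the fit the log2 fold change was 0.38 (SE 0.06), a 1.30-fold level, and without sex in the fit it was 0.31. Between the 4 KO females (223 ± 4.79 CPM) and the 3 WT females (161 ± 8.69 CPM) the log2 fold change was 0.47, and without KO replicate 5 in the fit of all mice it was 0.37. Mat2a was the 1 gene of the 8 whose CPM ranges did not overlap between the genotypes, which held for 1.88% of all tested genes (0.96% with KO above WT); since the 8 were proposed from this contrast, nothing is read from that count.

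**Figure D3:**
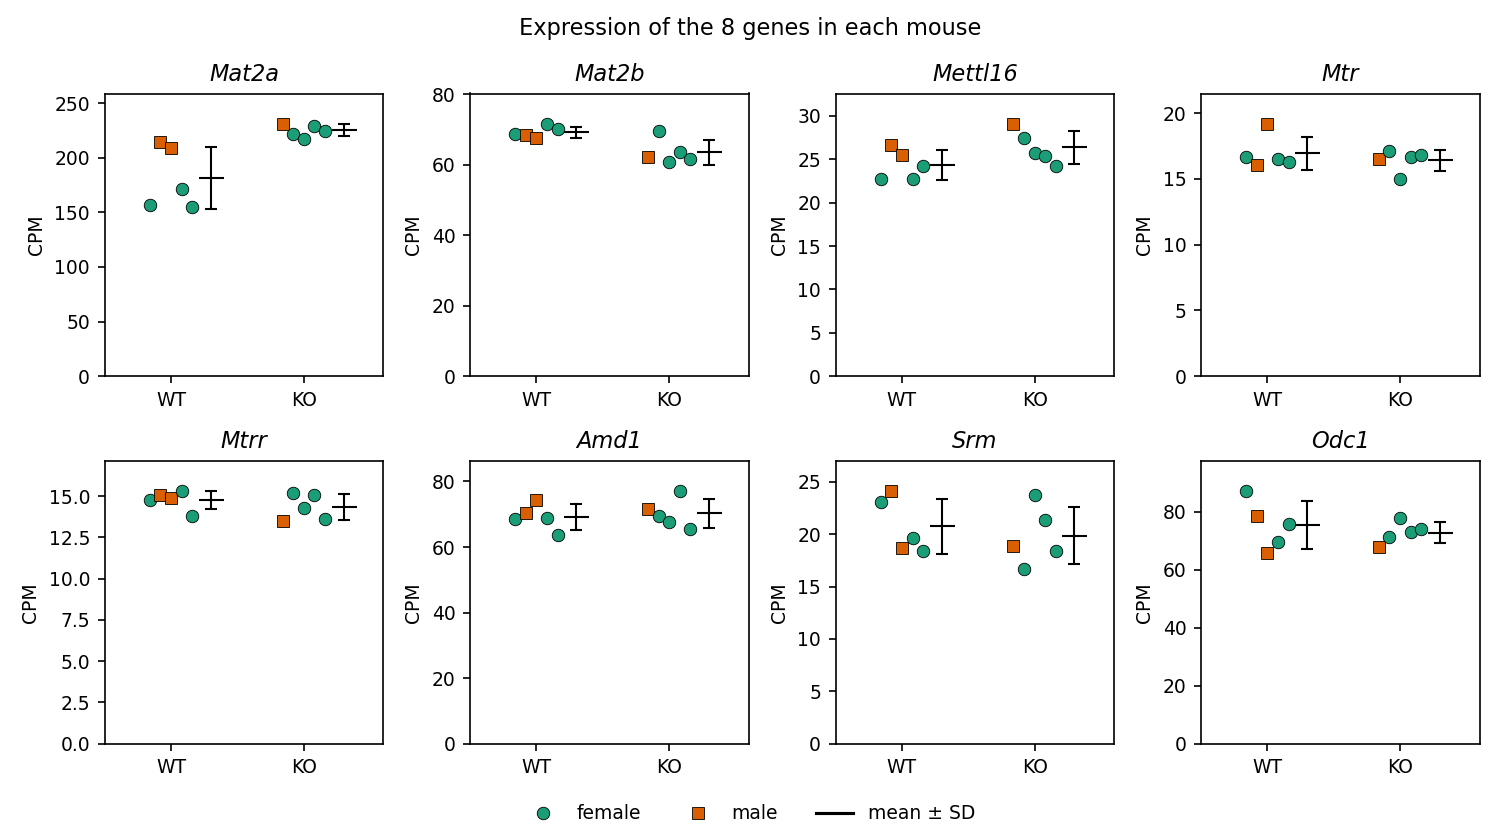
CPM of the 8 genes in each mouse, with a separate axis from 0 for each gene; circles are females, squares males, and bars the mean ± SD of 5 mice. In Mat2a the 3 WT females (155 to 171 CPM) sit below the 2 WT males and all KO mice, and in the other 7 genes the genotypes overlap.

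The promoter end of Mat2a overlaps a transcript on the opposite strand, Particl, over 508 bases. Whether strand was used in the counting is not given in the sources used here, so reads of the overlap may belong to either. Particl measured 10.1, 12.5, 13.8, 13.9 and 12.0 CPM in KO and 12.1, 13.6, 12.7, 10.9 and 10.4 CPM in WT replicates 1 to 5. The genotypes overlapped throughout, and the log2 fold change was 0.06 (SE 0.11). A processed pseudogene with 95.2% identity to Mat2a over 1065 bases, Gm9523, took 0.153% to 0.677% of the counts of both together, and with it added the log2 fold change of Mat2a remained 0.38.

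Mat2b (ENSMUSG00000042032; chromosome 11, 40679314 to 40695203, minus strand), the regulatory partner, went the other way in most mice. It measured 62.1, 69.6, 60.9, 63.6 and 61.5 CPM in KO replicates 1 to 5 and 68.6, 68.4, 67.6, 71.6 and 70.0 CPM in WT replicates 1 to 5. Of the KO mice 4 lay below all WT mice, and KO replicate 2 lay within the WT range. KO averaged 63.5 ± 3.54 CPM against 69.2 ± 1.58 CPM in WT, or -0.13 on the log2 scale (SE 0.05). The ratio of Mat2a to Mat2b, both per kilobase, was 3.56 to 4.15 in KO and 2.46 to 3.49 in WT mice, and these ranges did not overlap. The ratio rests on the same values as the genes, so it adds no separate support.

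Mettl16 (ENSMUSG00000010554; chromosome 11, 74770830 to 74828525, plus strand) encodes the RNA methyltransferase known to act on hairpins of Mat2a RNA. It measured 29.1, 27.5, 25.7, 25.4 and 24.2 CPM in KO replicates 1 to 5. In WT replicates 1 to 5 it measured 22.7, 26.6, 25.5, 22.7 and 24.2 CPM. The genotypes overlapped, and the highest value of each belonged to a male. KO averaged 26.4 ± 1.92 CPM against 24.4 ± 1.74 CPM in WT, or 0.15 on the log2 scale (SE 0.05), and 0.17 without KO replicate 5.

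The enzymes that turn homocysteine into methionine differed little. Mtr (ENSMUSG00000021311; chromosome 13, 12182712 to 12258113, minus strand), the methionine synthase, ranged from 15 to 17.1 CPM in KO and from 16.1 to 19.2 CPM in WT mice, with a log2 fold change of -0.03 (SE 0.07) that was 0.002 without WT replicate 3, the highest mouse. Mtrr (ENSMUSG00000034617; chromosome 13, 68560780 to 68582149, minus strand), its reductase, ranged from 13.5 to 15.2 and from 13.8 to 15.3 CPM, with a log2 fold change of -0.05 (SE 0.07).

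Among the polyamine genes the genotypes overlapped in every one. Amd1 (ENSMUSG00000075232; chromosome 10, 40287458 to 40302186, minus strand) ranged from 65.5 to 77.0 CPM in KO (mean 70.2 ± 4.39) and from 63.6 to 74.4 CPM in WT (mean 69.1 ± 3.86), or 0.04 on the log2 scale (SE 0.06). Srm (ENSMUSG00000006442; chromosome 4, 148591503 to 148594993, plus strand) measured 18.9, 16.7, 23.7, 21.4 and 18.4 CPM in KO and 23.1, 24.1, 18.7, 19.6 and 18.4 CPM in WT replicates 1 to 5. Its spread within a genotype exceeded the difference of the means (log2 fold change -0.06, SE 0.11). Odc1 (ENSMUSG00000011179; chromosome 12, 17544794 to 17551505, plus strand) measured 67.8, 71.2, 77.9, 73.1 and 74.0 CPM in KO and 87.1, 78.6, 65.8, 69.7 and 75.9 CPM in WT replicates 1 to 5. The WT mice spread wider than the KO mice on both sides, and the log2 fold change was -0.07 (SE 0.07).

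Amd1 and Odc1 have near-identical copies elsewhere, between which the estimated counts can be split. Amd2, a protein-coding copy 99.6% identical to Amd1 over 1826 bases, was estimated at 0 to 5.94 CPM. Together with 3 processed pseudogenes in the table, of which Amd-ps3 reached 8.6 CPM, it took 11.1% to 18.2% of the summed counts, so the level of Amd1 alone is uncertain by about that share. The sum averaged 81.5 ± 5.06 CPM in KO against 79.9 ± 2.53 CPM in WT, and the genotypes overlapped as for Amd1 alone. For Odc1, 8 pseudogenes took 3.52% to 6.13% of the summed counts. These sums leave out copies that align in the opposite orientation: for Odc1 the protein-coding AW146154 (95.2% over 500 bases, 19.5 to 23 CPM), and for Mat2a 6030443J06Rik (95.2% over 227 bases, 0.093 to 1.14 CPM). If the counting ignored strand, reads could be split with these as well.

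Between the sexes, a contrast from the same fit as the genotype contrast, 0 of the 8 passed in edgeR (background 0.583% of all tested genes). Mat2a and Mettl16 were the 2 with an unadjusted p under 0.05, which 15.1% of all tested genes had. DESeq2 called Mat2a (Wald test, adjusted p 0.0161) among 2.42% of all tested genes, and limma-voom called none of the 8 and 0.516% of all tested genes. In Mat2a the 3 males spanned 209 to 231 CPM and the 7 females 155 to 229 CPM, which overlapped, with a log2 fold change of 0.26 for male against female (SE 0.07, edgeR adjusted p 0.10). Without KO replicate 5 it was 0.27 (adjusted p 0.13). Over 18 alternative settings the direction held, the log2 fold change ran from 0.15 to 0.39 and the adjusted p from 0.0161 to 0.73. The lowest, 0.15, came without genotype in the fit, so the sex value of Mat2a depends on its genotype values. For Mettl16 the 3 males averaged 27.1 ± 1.82 CPM and the 7 females 24.6 ± 1.71 CPM, which gave 0.17 on the log2 scale (SE 0.06; adjusted p 0.19 in edgeR), or 0.16 without KO replicate 5. For the other 6 genes the log2 fold changes ran from -0.11 (Odc1) to 0.08 (Amd1), with edgeR adjusted p from 0.51 to 0.98.

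**Figure D4:**
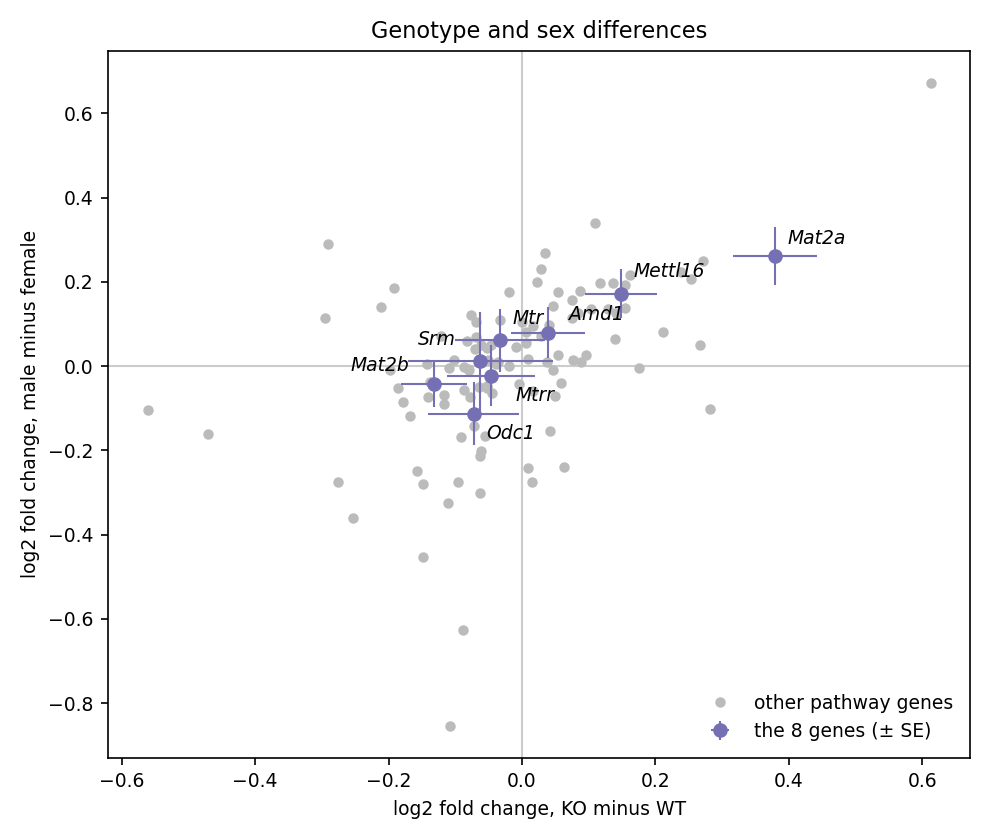
Log2 fold change between KO and WT (x axis) and between male and female (y axis) from 1 fit over 10 mice; purple points with bars are the 8 genes ± SE, grey points the 105 other tested genes of the pathway list. Mat2a lies at 0.38 and 0.26 and Mettl16 at 0.15 and 0.17, while the other 6 genes lie between -0.13 and 0.04 on the x axis and between -0.11 and 0.08 on the y axis.

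The sex difference of Mat2a is also given within each genotype, as a description without a test, since it rests on the KO and WT values by which the gene was chosen. Within WT mice the male to female log2 fold change was 0.39 (SE 0.07). Within KO mice it was 0.05 (SE 0.08), or 0.05 (SE 0.09) without KO replicate 5, and both KO values rest on the 1 library labelled as a KO male, assumed to vary like the other groups. For Mettl16 it was 0.17 (SE 0.08) within WT and 0.18 (SE 0.09) within KO mice, or 0.15 without KO replicate 5.

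Across the 10 mice, which share library and tissue effects, the levels of the 8 genes were compared as correlations of log2 CPM, without a test. Of the other 7 genes, Mat2a followed Mettl16 most closely (Pearson's r 0.74, Spearman's rho 0.56). Closer still, 27 of 12876 other genes reached 0.9 with Mat2a. The share of all genes that reach lower values, such as 0.74, was not computed. The r with Mettl16 remained at 0.62 with the genotype means removed and at 0.72 among the 7 females. Leaving out single mice gave 0.65 to 0.83, and the means of the sexes were not removed. Mat2a ran against Mat2b (r -0.66, rho -0.67), but with the genotype means removed r was -0.21. Srm and Odc1, which act in consecutive steps of spermidine synthesis, followed each other (r 0.66, rho 0.52, and 0.65 with the genotype means removed). Mat2b with Mtrr gave r 0.59 (0.55 with the genotype means removed), and Mtrr with Amd1 gave 0.50 (0.59). Mtr ran against both Srm and Odc1, with r -0.51 (-0.60) for each. Mat2a against Odc1 was -0.44 over all mice and -0.09 without WT replicate 1, and it turned to 0.19 without the 2 mice farthest from the median of Mat2a, so that value rested on those mice. The correlation of Mat2a with Amd1, the enzyme that commits S-adenosylmethionine to polyamines, was 0.50 over all mice and 0.26 without WT replicate 5, or 0.17 without the 2 farthest mice. With the genotype means removed it was 0.60, close to the 0.62 of Mettl16. Without the 2 farthest mice the values for Mettl16 and Mat2b were 0.72 and -0.68. Against Mtr and Srm the correlation of Mat2a was 0.05 and -0.07, and without the 2 farthest mice -0.04 and -0.02. Against Mtrr it was -0.09 over all mice, -0.39 without WT replicate 5 and -0.49 without the 2 farthest mice, so its value near 0 did not hold. With the genotype means removed, Mat2a gave 0.39 with Mtr, 0.11 with Srm, 0.27 with Mtrr and -0.45 with Odc1.

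The genes most like Mat2a were taken as those with the highest Pearson's r of log2 CPM over the 10 mice among 12876 other genes averaging 5 CPM or more. Among the highest were Slc38a2 (r 0.957), Rhbdf2 (0.943), Usp36 (0.942) and Dusp8 (0.937), and 27 genes (0.21%) reached 0.9. Slc38a2 encodes a sodium-coupled transporter of neutral amino acids, methionine among them. Slc38a2 measured 145, 144, 129, 133 and 141 CPM in KO replicates 1 to 5 and 103, 139, 135, 114 and 105 CPM in WT replicates 1 to 5. As in Mat2a, the 3 WT females were the lowest mice, at 103 to 114 CPM, and the 2 WT males lay within the KO range. Its log2 fold change was 0.27 between KO and WT (SE 0.06, edgeR adjusted p 0.12) and 0.25 between male and female (SE 0.07, edgeR adjusted p 0.10). Dusp8, a phosphatase gene, had the widest range of these 4 relative to its mean, from 23.9 to 30.3 CPM in the WT females and from 35.5 to 40.1 CPM in the other 7 mice. With the genes ranked by likeness to Mat2a, a match to its genotype and sex values follows from the ranking and is no further result.

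**Figure D5:**
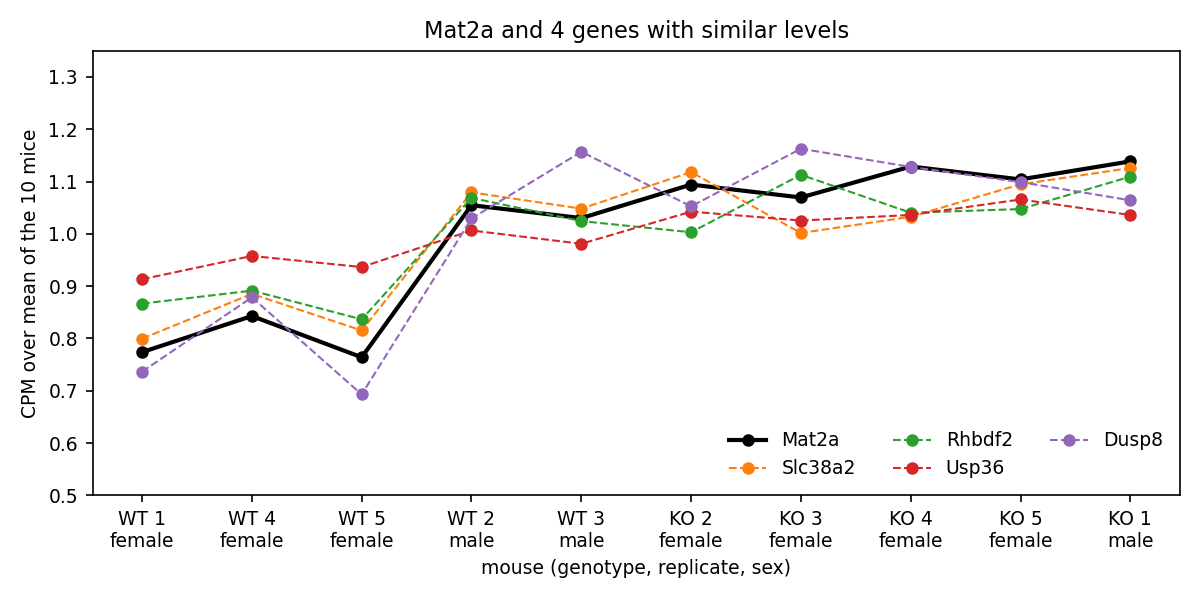
CPM of Mat2a (black) and of 4 of the genes most correlated with it, each divided by its mean over the 10 mice; mice on the x axis are ordered by genotype and sex, and the lines only join points of 1 gene. In all 5 genes shown the 3 WT females are the lowest mice, Mat2a there at 155 to 171 CPM.

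The other members had different companions. Those of Mettl16 were E2f6, a transcriptional repressor gene (r 0.975), and Mdm1 (0.955), and those of Mat2b were Mocs2, a molybdenum cofactor gene (0.918), and Sri (0.909). Srm went with Egln2, a prolyl hydroxylase gene (0.973), and Gm2274 (0.941), and Odc1 with Rogdi (0.948) and Cfap20 (0.933). For Mtr (Nrd1 0.834, Ninl 0.832), Mtrr (A330009N23Rik 0.890, Smco4 0.886) and Amd1 (Dcaf1 0.888, Naa35 0.871) no gene reached 0.9.

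The rest of the pathway was covered by a list of 109 genes in 11 groups, of which 105 were tested. Between KO and WT 0 of them passed in edgeR (background 0.0222%), and 24 had an unadjusted p under 0.05, where 17% of all tested genes did. DESeq2 called 2 (Slc38a2 higher and Dhps lower in KO) and 1.92% of all tested genes, and limma-voom called 0 and 0.0111% of all tested genes. By group, KO lay below WT in 7 of 10 methionine cycle genes, 7 of 8 small-molecule methyltransferases, 12 of 18 folate genes, 4 of 6 transsulfuration genes, 4 of 5 salvage genes, 7 of 10 polyamine synthesis genes, 4 of 8 polyamine breakdown and transport genes, 3 of 4 hypusine genes, 1 of 5 methionine transporters, 5 of 22 RNA methylation genes and 5 of 9 MYC family genes. That made 59 of the 105 listed genes (56.2%), against 50.7% of all tested genes, and no listed gene passed in edgeR. The median log2 fold change of the list was -0.04, against -0.00272 over all genes. Between the sexes 0 passed by edgeR (background 0.583%), and 30 had an unadjusted p under 0.05, against 15.1% of all tested genes. DESeq2 called 5 (Ahcyl2, Gclc and Slc38a2 higher, Azin2 and Sat2 lower in males) and 2.42% of all tested genes, and limma-voom called 0 and 0.516% of all tested genes. The median was 0.01, against -0.01 over all genes.

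In the values that follow, the first is the mean ± SD of 5 KO and the second that of 5 WT mice. Around the methionine cycle itself, 10 of 12 genes were tested, and Bhmt and Bhmt2, which remethylate homocysteine in liver, were too low. Mmadhc, which routes vitamin B12 towards MTR, measured 37.2 ± 2.89 CPM in KO against 41.6 ± 2.30 CPM in WT (-0.18 on the log2 scale, SE 0.06; adjusted p 0.20 in edgeR). Ahcyl1, a relative of the hydrolase that clears S-adenosylhomocysteine, measured 104 ± 3.86 and 104 ± 4.56 CPM. Of the small-molecule methyltransferases Inmt, which methylates indoleamines, had by far the highest level in the list, at 1001 ± 102 CPM per kilobase. It measured 1504 ± 152 CPM in KO against 1700 ± 113 CPM in WT, with overlapping ranges (-0.19 on the log2 scale, SE 0.08; adjusted p 0.24 in edgeR).

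In the folate cycle, which supplies the methyl group used by MTR, 18 of 19 genes were tested. Mthfd1, which interconverts folate forms, measured 110 ± 7.09 CPM in KO against 115 ± 5.62 CPM in WT, and Ggh, a folate hydrolase gene, 23.5 ± 2.72 and 24.3 ± 1.88 CPM. Transsulfuration drains homocysteine into cysteine, and the group listed under that name also held genes that act on cysteine once made. Highest in the group was such a gene, Cdo1, the cysteine dioxygenase, at 193 ± 13.9 and 204 ± 8.04 CPM. Cbs and Cth, which turn homocysteine into cysteine, averaged 0.733 and 2.27 CPM per kilobase, against 121 for Cdo1. Gclc, which starts glutathione synthesis, averaged 200 ± 22.5 CPM over 3 males against 161 ± 14.3 CPM over 7 females, or 0.34 on the log2 scale (SE 0.08; adjusted p 0.07 in edgeR). Of the salvage genes that recover methionine from the by-product of polyamine synthesis, Adi1 (41.8 ± 2.32 and 44.3 ± 2.27 CPM) and Apip (12.2 ± 0.907 and 13.5 ± 1.05 CPM) overlapped between the genotypes.

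Oaz1 encodes antizyme, which binds ODC1 and sends it to the proteasome, and it measured 263 ± 26.4 CPM in KO against 290 ± 15.9 CPM in WT (-0.17 on the log2 scale, SE 0.07; adjusted p 0.24 in edgeR). Oat, which exchanges ornithine and glutamate semialdehyde, measured 229 ± 15.2 and 246 ± 19.3 CPM. Sat1, which acetylates polyamines for breakdown or export, measured 118 ± 5.94 and 126 ± 5.21 CPM (-0.12 on the log2 scale, SE 0.05; adjusted p 0.24 in edgeR), and the lysosomal polyamine exporter gene Atp13a2 144 ± 12.4 and 147 ± 9.56 CPM. Eif5a, whose protein carries hypusine, measured 256 ± 10.6 and 270 ± 13.5 CPM, and Dohh, the hydroxylase of that residue, 31.1 ± 2.38 and 32.3 ± 2.67 CPM. Each of these 6 genes overlapped between the genotypes.

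Methionine enters cells through heteromeric and sodium-coupled carriers, and beside Slc38a2 the heavy chain gene Slc3a2 measured 206 ± 12.9 CPM in KO against 199 ± 20.96 CPM in WT. Of the 22 genes of RNA N6-methyladenosine and Mat2a RNA processing, 17 had a log2 fold change above 0 between KO and WT. Between male and female 20 did, and 0 passed either comparison. Their medians were 0.07 and 0.09, against -0.003 and -0.006 over all tested genes. The 22 genes were measured in the same 10 mice and are not separate observations, so nothing is read from these counts. Alkbh5, a demethylase gene, measured 150 ± 7.02 and 144 ± 10.4 CPM in KO and WT, and Ythdf1, a reader gene, 68.7 ± 3.18 and 67.6 ± 2.84 CPM. In the MYC family, whose members bind and regulate polyamine genes in other settings, Mxd4 measured 302 ± 10.9 and 316 ± 44.0 CPM and Max 81.4 ± 7.32 and 80.3 ± 3.32 CPM.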

How the data were processed

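RNA from 10 lung pieces was sequenced as stranded mRNA libraries with single reads of 50 bases, per the labels' protocols. The authors deposited 1 table of estimated counts per gene, not scaled between samples. The submitters' processing notes name FastQC, MultiQC, STAR 2.6.0 and Salmon 0.9.1 and the builds mm10 and GRCm38, without their roles; annotation and filters are not given in the sources used here. Symbols, coordinates and lengths came from GENCODE M21 (GRCm38): 47281 identifiers matched and 52, with 0.00668% of the counts, did not. The values were not all whole: 30.1% of those above 0 differed from the nearest whole number by over 0.01. No column was left without a sample.

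Estimated counts were rounded and tested with edgeR 4.0.16 (R 4.3.3; quasi-likelihood, robust, genotype and sex additive, TMM, filterByExpr by genotype with a minimum count of 10 and total of 15, Benjamini-Hochberg over 18024 genes, called under 0.05, two-sided). The SE is the absolute log2 fold change over the square root of F. Log2 CPM used a prior count of 2. Alternatives were DESeq2 1.42.0 (its own filter on mean counts off), limma-voom (limma 3.58.1), other scaling and filters, females alone and each mouse left out. Sex values within each genotype, from a fit with an interaction term, and sums with near-identical copies in the same orientation (blastn, at least 95% identity over at least 100 bases) were added after seeing the data. The scripts were tested on simulated counts.

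The 8 genes and the lists were chosen with earlier results of these data known. Named genes were the 8 genes, listed genes that passed, the 2 per group with the highest CPM per kilobase, the 5 genes most like Mat2a and 2 for each other gene; 2 genes that this rule names are not reported here. Other genes named fall outside this rule and were picked once their values had been seen. They are Particl, Gm9523, Amd2, Amd-ps3, AW146154, 6030443J06Rik, Mat1a, Cbs, Cth, Xist, marker genes and those passing by DESeq2 alone. The floor of 3 counts allows for counting error alone; without molecular identifiers, reads can be copies of 1 molecule. The replicate numbers follow sample order and pair no mice.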

Additional observations from a re-analysis of the deposited data

Results flagged for a closer look

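For each of the 8 genes the extreme mouse among the 5 KO, 5 WT and 7 female mice was compared by Dixon's test, 24 sets in all, of which 2 stood out, where chance gives about 1.2 (1 in 20). Both concerned Mtr, the methionine synthase gene. WT replicate 3, a male, measured 19.2 CPM, whereas the other WT mice spanned 16.1 to 16.7 CPM. KO replicate 3 measured 15 CPM, below the 16.3 to 17.1 CPM of the other 6 females. No cause was tested.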

How the results depend on the processing

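Between KO and WT the count of 4 genes became 346 by DESeq2, 50 with no filter on low counts and 2 by limma-voom, and it ran from 2 to 18 without single mice (2 without KO replicates 2, 4 or 5 or WT replicate 1, 18 without WT replicate 3). Between the sexes the count of 105 became 436 by DESeq2, 197 with no filter and 41 without the genotype covariate, and ran from 0 (without KO replicate 1, the 1 KO male; 1919 genes had an unadjusted p under 0.05) to 195 (without WT replicate 4). Without KO replicate 5, whose sex label is in doubt, the count was 93. The pathway list went from 0 to 2 by DESeq2 between the genotypes, and between the sexes to 5 by DESeq2, 2 with no filter and 0 to 1 without single mice. The cause of these shifts was not tested; leaving out a mouse also leaves fewer samples. The direction of Mtr between the genotypes held in 17 of 18 alternatives. The log2 fold change of Mat2a between KO and WT ran from 0.31 to 0.47 over 19 alternatives. Between the sexes the direction turned without single mice for Srm (-0.097 to 0.080), Mtrr (-0.051 to 0.034) and Mtr (-0.014 to 0.111), each near 0 throughout; for the other 5 genes it held in every alternative run. Mat2a passed between the sexes by DESeq2 alone (0.27, adjusted p 0.0161). No paired analysis was possible because the labels give the mice no shared numbers.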

Other observations

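RefSeq promoters (GRCm38.p6; 250 bases before to 50 after the start) were at hand for 7 of the 8 genes, all but Srm. The E-box CACGTG, the palindromic motif bound by MYC with MAX, was in none of them, whereas 8.09% of genes held it in at least 1 promoter. This says only that these letters are not in those windows.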
